A study of Mus musculus with 2 samples.

Results

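Oligodendrocyte progenitor cells (OPCs) of the mouse dentate gyrus, taken at postnatal day 5, were followed in 1 control library and 1 Setdb1_cKO library of 10x Genomics 3' single-cell RNA sequencing. A kept cell held 1000 or more unique molecular identifiers (UMIs) and 500 or more genes, and no more than 10% of its UMIs came from mitochondrial genes. An OPC was a kept cell with at least 2 UMIs of Pdgfra, Cspg4 and Sox10 together, at least 1 UMI of Olig1 or Olig2, and 0 UMIs of Col1a1, Col1a2 and Eomes. Cells chosen by these raw counts numbered 552 of 21370 kept cells, 364 of 11414 in the control library and 188 of 9956 in the Setdb1_cKO library. The gate read measured values, so the level of a gate gene is a description and not a result.

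The control mice carried the wild type genotype and the mutant mice a conditional knockout of Setdb1, and by its title the series asks about the fate and state of dentate gyrus cells. Both groups were taken at postnatal day 5, the hippocampal region was dissected and dissociated with enzymes, and about 20000 cells were loaded per library. The sources used here name no Cre driver, deleted exon, strain, sex or number of pooled animals. With a single library for each genotype there was no replicate check and no test, and every interval (95%) covers counting error only. OPCs held 2052785 UMIs in control and 1173315 in Setdb1_cKO, with medians of 4817 and 5000.5 UMIs and 2430 and 2550 genes per cell. Of all barcodes, 68 occurred in both libraries, and 0 of these were OPCs in both. Xist, the noncoding RNA of the inactive X chromosome, had 0 UMIs in control OPCs and 1720 in Setdb1_cKO OPCs, where 181 of 188 cells held it. The Y-linked Eif2s3y, Ddx3y and Kdm5d had 152, 122 and 40 UMIs in control OPCs and 0 in Setdb1_cKO OPCs. Sex-linked expression, genotype and library therefore cannot be told apart here.

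OPCs divide under platelet-derived growth factor signalling through the receptor Pdgfra, tile the brain, receive synapses from neurons, and turn into premyelinating cells and then into myelinating oligodendrocytes. In the hippocampus most of this differentiation follows birth. Gpr17 and Bcas1 mark the committed, premyelinating step, and Mbp encodes a main protein of compact myelin. Setdb1 encodes a methyltransferase that places trimethylation on lysine 9 of histone H3, a repressive mark. Atf7ip is its stabilising partner, and Trim28 recruits it to repeats and germline genes in many mouse cells.

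The levels of the gate genes follow from the choice of cells and are given as a description. Pdgfra stood at 1082 UMIs per 1000000 UMIs of the class (CPM) in control OPCs and 1016 CPM in Setdb1_cKO OPCs, against 8.39 and 8.02 CPM in the other kept cells. Cspg4, the NG2 proteoglycan, stood at 397 and 436 CPM, and Sox10, the lineage transcription factor, at 221 and 314 CPM. Olig1 was held by 98.6% and 98.4% of OPCs. Sox10 was found in 64.8% of control and 78.7% of Setdb1_cKO OPCs. Cells just inside the threshold, with 2 UMIs of the first 3 genes, numbered 30 and 12, and cells just outside it, with 1 UMI, numbered 95 and 44. An identity list of genes outside the gate summed to 5943 and 4133 CPM just inside, 6564 and 4498 CPM just outside, and 10882 and 11593 CPM in cells with 3 or more. Cells at the edge were therefore less sharply OPC by this list than cells well inside it, on either side of the threshold.

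Genes outside the gate bear on the label, and those of the lineage stood above the other cells in both libraries. Over all 9789 measured genes (at least 30 UMIs over both libraries in OPCs), 731, or 7.47%, were at least 2-fold above the other kept cells in both libraries, and 271, or 2.77%, at least 2-fold below. The minimum of 30 UMIs was read in the OPCs themselves. Genes high in OPCs passed it more easily, and genes low there could drop out, so it shaped both shares. Of the 24 measured members of the identity list, 23 were at least 2-fold above the other kept cells in both libraries. The exception was Vcan, the proteoglycan versican, at 1.46-fold in control and 3.12-fold in Setdb1_cKO. Ptprz1, a receptor phosphatase of OPCs and radial glia, had the highest level of the list, with 3374 CPM in control and 3260.0 CPM in Setdb1_cKO. Serpine2, a protease inhibitor, followed at 1136 and 1221 CPM, and Lhfpl3 at 726 and 822 CPM.

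The 15 genes that separated OPCs most sharply from other cells, by the interval bound of the ratio in the weaker library, were Gpr17, Lhfpl3, Prkcq, Pou3f1, Pnlip, Ugt8a, Bcas1, Stk32a, Pllp, Matn4, Gal3st1, Vxn, Pcdh11x, Lnx1 and Brinp3. Gpr17, a receptor that holds precursors before maturation, was 347-fold above the other cells in control and 373-fold in Setdb1_cKO. Lhfpl3 was 171-fold and 155-fold above them and occurred in 91.5% and 91.5% of OPCs. Ugt8a and Gal3st1, the pair of enzymes that make the myelin lipids galactosylceramide and sulfatide, were 112-fold and 124-fold above them in control and 115-fold and 59.2-fold in Setdb1_cKO.

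**Figure D1:**
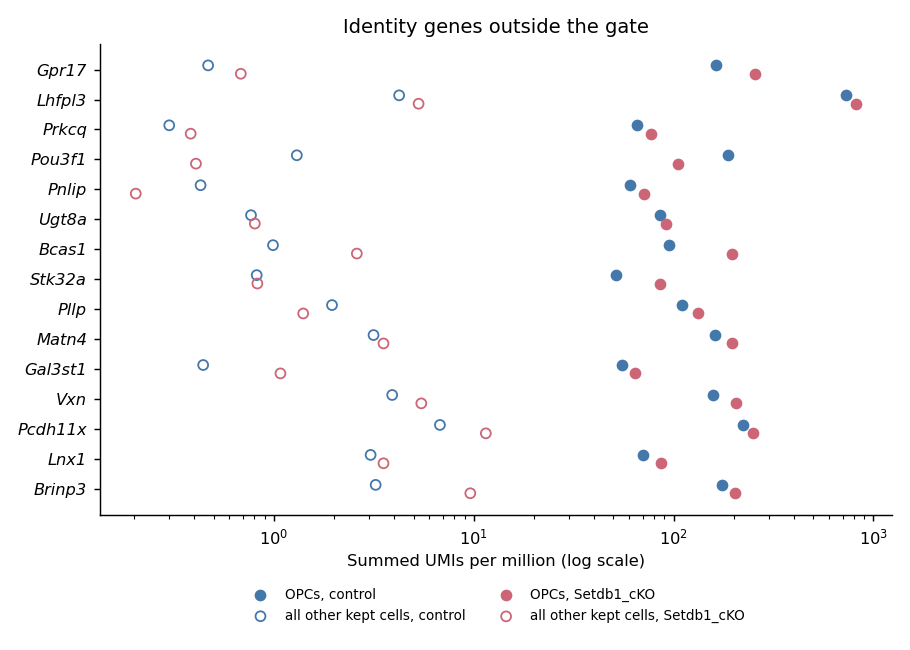
Summed UMIs per 1000000 (log scale) of the 15 genes outside the gate that most sharply set OPCs apart, with filled points for OPCs and open points for all other kept cells of each library. Every filled point lies to the right of both open points of its gene, from 21.0-fold for Brinp3 in Setdb1_cKO upwards.

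A minority of OPCs held Nkx2-1 or Gsx1, patterning factors that were picked after their values were seen, and whether the same cells held both was not counted. Nkx2-1, a factor of the medial ganglionic eminence, had 42 UMIs in control and 32 in Setdb1_cKO and was found in 10.7% and 14.9% of OPCs, against 0.117 and 0.144 CPM in the other kept cells. Gsx1, a homeobox factor of ganglionic eminence progenitors, was found in 9.07% and 11.2% of OPCs. The subpallial factors Dlx1 and Dlx2 were near 0, as Dlx1 had 3 UMIs in each library and Dlx2 had 0 in control and 1 in Setdb1_cKO. Sp9, a further subpallial factor, was found in 3.57% of control and 10.6% of Setdb1_cKO OPCs. It had 14 and 21 UMIs, a Setdb1_cKO to control ratio of 2.62 (1.27 to 5.58). The libraries did not differ beyond counting error in either Nkx2-1 or Gsx1, with Setdb1_cKO to control ratios of 1.33 (0.814 to 2.16) and 1.40 (0.82 to 2.37). Lhx2, a forebrain progenitor factor of most other cells here, was lower in OPCs than in the rest. It stood at 101 CPM in control OPCs against 423 CPM, and at 99.7 against 287 CPM in Setdb1_cKO.

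OPCs made up 3.19% (2.87% to 3.53%) of kept control cells and 1.89% (1.63% to 2.18%) of kept Setdb1_cKO cells. The share in Setdb1_cKO was 0.592 (0.494 to 0.708) of that in control. A share of a dissociated library depends on every other cell type in it, and with 1 library each the dissection, the dissociation and the genotype cannot be told apart.

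Setdb1 mRNA, the target of the knockout, did not differ beyond counting error between the libraries in OPCs. It had 105 UMIs in control and 62 in Setdb1_cKO, or 51.1 and 52.8 CPM, a ratio of 1.03 (0.742 to 1.43). With cells thinned to 2000 UMIs each, 37 of 346 control OPCs (10.7%) and 19 of 182 Setdb1_cKO OPCs (10.4%) held a UMI of it. In neurons gated by Neurod6 Setdb1 stood at 43.5 and 16.7 CPM in the same order, a ratio of 0.383 (0.327 to 0.448). The same ratio came to 0.425 (0.352 to 0.514) in astrocytes, 0.533 (0.478 to 0.594) in neuroblasts and 0.381 (0.236 to 0.595) in cells with Egfr and Olig2 but no Pdgfra, Cspg4 or Sox10. Microglia, at 0.889 (0.646 to 1.23), and endothelial cells, at 1.23 (0.777 to 1.91), gave intervals that held 1, as OPCs did. The OPC interval lay above those of neurons, astrocytes, neuroblasts and Egfr and Olig2 cells, though all classes of a library share that library. The 3' reads do not show whether a deleted exon is missing, so an unchanged level of mRNA does not check the deletion.

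Among the 19 measured of 21 genes of histone H3 lysine 9 methylation and its readers, 1 was at least 1.5-fold higher in Setdb1_cKO OPCs and 0 were lower, while over all 9789 measured genes 5.52% were at least 1.5-fold higher and 7.11% lower. The median log2 ratio was 0.02 in the list and 0.01 over all measured genes. The gene past the threshold was Atf7ip, with 108 CPM in control OPCs and 169.6 CPM in mutant OPCs, a ratio of 1.58 (1.29 to 1.92). It was also higher in Setdb1_cKO astrocytes, at 2.42 (2.18 to 2.68), and in Egfr and Olig2 cells, at 2.73 (2.17 to 3.45), while microglia gave 1.03 (0.784 to 1.35). The value over all OPCs thus lay between the microglia and the other neural classes. Without possible doublets, defined below, 0 of 19 measured genes of the list were at least 1.5-fold higher and 0 lower. Atf7ip thus no longer passed the threshold in those cells, where 5.63% of 8698 measured genes were higher and 6.51% lower. Trim28 had a ratio of 0.957 (0.765 to 1.19), Ehmt1, a methyltransferase of lysine 9, 1.01 (0.786 to 1.29), and the HP1 genes Cbx1, Cbx3 and Cbx5, whose proteins bind the mark, 1.06, 1.06 and 1.02.

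**Figure D2:**
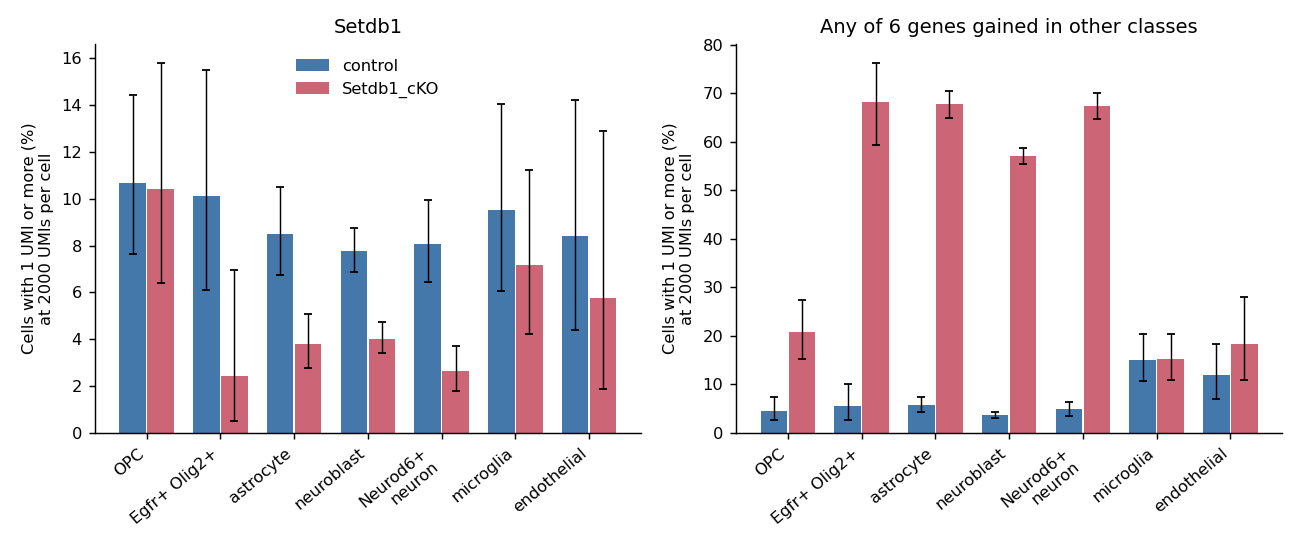
Percent of cells with 1 UMI or more of Setdb1 (left) and of any of 6 genes gained in other cell types of the Setdb1_cKO library (right), each cell thinned to 2000 UMIs, with exact 95% binomial intervals. OPC bars are level for Setdb1 (10.7% and 10.4%) and go from 4.62% in control to 20.9% in Setdb1_cKO for the 6 genes, against 5.69% and 67.8% in astrocytes.

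Mnd1, a meiotic recombination factor, Tcfl5, a testis transcription factor, and the noncoding Gm7967, Gm48619 and Gm49795, together with the cytokine receptor gene Crlf2, were known from earlier results on these libraries to be higher in Setdb1_cKO in other cell types. They were followed here for that reason, and their direction is no independent evidence. Promoter windows of 300 bases (250 before and 50 after the start site) from RefSeq on GRCm38.p6 matched 4 of the 6 genes. Those of Mnd1 (chr3:84155737-84156036, minus strand) and Tcfl5 (chr2:180642642-180642941, minus strand) are printed 5′ to 3′ because they are the germline genes of the group.
Mnd1: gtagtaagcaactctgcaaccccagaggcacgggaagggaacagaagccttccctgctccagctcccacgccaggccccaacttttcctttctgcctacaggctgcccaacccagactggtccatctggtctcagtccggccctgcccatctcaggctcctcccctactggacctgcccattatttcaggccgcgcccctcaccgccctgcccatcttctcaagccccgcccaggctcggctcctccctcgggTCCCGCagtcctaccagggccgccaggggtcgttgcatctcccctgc
Tcfl5: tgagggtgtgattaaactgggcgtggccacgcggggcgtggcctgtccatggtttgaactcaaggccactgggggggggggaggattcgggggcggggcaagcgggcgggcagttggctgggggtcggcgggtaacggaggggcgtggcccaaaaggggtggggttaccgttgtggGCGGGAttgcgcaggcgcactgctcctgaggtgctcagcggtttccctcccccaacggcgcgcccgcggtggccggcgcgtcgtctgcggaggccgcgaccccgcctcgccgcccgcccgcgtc
The capitals mark GCGGGA, a motif that E2F6, a repressor of germline genes, is known to bind, written as TCCCGC where it lies on the opposite strand. It began at position 4 in Mnd1 and at position -74 in Tcfl5, counting the first transcribed base as 1, and was not in the windows of Gm7967 and Crlf2. CACGTG, the E-box, was in none of the 4 windows. Both motifs, which share no overlap, were searched on both strands. Of 32851 windows of the same length, 20% held GCGGGA and 7.15% held CACGTG, so the matches are a description only.

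In OPCs these 6 genes summed to 49 UMIs in control and 289 in Setdb1_cKO, or 23.9 and 246 CPM, a ratio of 10.3 (7.60 to 14.3). Mnd1 had 7 UMIs in 6 control cells and 77 UMIs in 38 Setdb1_cKO cells, a ratio of 19.2 (8.91 to 49.5). Tcfl5 had 10 UMIs in 10 cells and 47 UMIs in 29 cells, a ratio of 8.22 (4.10 to 18.3). Without possible doublets, defined below, Mnd1 had 3 and 31 UMIs, a ratio of 16.6 (5.19 to 85.1). Tcfl5 then had 7 and 28 UMIs, a ratio of 6.44 (2.75 to 17.5). Both genes were thus spread over many mutant cells and near absent from control cells. The same held for Gm49795, with 2 and 64 UMIs in 2 and 28 cells, a ratio of 56.0 (14.9 to 472). Gm7967 had 7 and 61 UMIs in 5 and 25 cells, a ratio of 15.2 (6.97 to 39.5). Crlf2 differed less, with 23 and 16 UMIs and a ratio of 1.22 (0.601 to 2.41). Of the 35 listed germline genes 5 were measured in OPCs. Of these, 3 were at least 1.5-fold higher and 0 lower, beside 5.52% and 7.11% of all measured genes. The higher ones were Tcfl5, Mnd1 and Brdt, the last at 1.68 (0.918 to 3.07). Tcfl5 and Mnd1 belong to the 6 genes followed because they were known to be higher, so this count is no independent evidence.

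A smaller share of OPCs than of astrocytes or neurons carried these transcripts in the Setdb1_cKO library. At 2000 UMIs per cell, 16 of 346 control OPCs (4.62%, 2.67% to 7.40%) and 38 of 182 Setdb1_cKO OPCs (20.9%, 15.2% to 27.5%) held a UMI of the 6 genes. Without thinning the shares were 12.1% and 36.2%. In Setdb1_cKO the thinned share was 67.8% (65.0% to 70.4%) in astrocytes, 68.3% (59.3% to 76.4%) in Egfr and Olig2 cells, 57.2% (55.5% to 58.8%) in neuroblasts and 67.5% (64.7% to 70.2%) in Neurod6 neurons. The OPC interval lay below all 4 of these. Microglia, which stand here for cells that should lack germline transcripts, had 15.2% in both libraries, but 33 of 36 of their control UMIs and 31 of 39 of their Setdb1_cKO UMIs were Crlf2, a gene that microglia hold in both. Endothelial cells had 11.9% (7.08% to 18.4%) in control and 18.4% (10.9% to 28.1%) in Setdb1_cKO, an interval that overlapped that of OPCs. Their Crlf2 UMIs numbered 16 in control and 4 in Setdb1_cKO, and their Mnd1 UMIs 2 and 10. The share of endothelial cells with Mnd1 was 1.40% and 10.3%, a ratio of 7.40 (1.53 to 70.3). At 3000 UMIs per cell that ratio was 1.80 (0.241 to 13.4). Mnd1 alone stood at 8.89 CPM in Setdb1_cKO microglia, 31.6 CPM in endothelial cells, 65.6 CPM in OPCs and 161 CPM in astrocytes. Without possible doublets, defined in the next paragraph, 31 of the 77 Mnd1 UMIs remained in Setdb1_cKO OPCs, or 34.9 CPM. The other classes are given unfiltered.

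Within Setdb1_cKO OPCs the transcripts were uneven. Of the 188 cells, 120 (63.8%) had 0 UMIs of the 6 genes, 26 (13.8%) had 1 and 42 (22.3%) had 2 or more, against 320, 40 and 4 of the 364 control cells. The 42 cells were deeper, with a median of 8195 UMIs against 4835 in the 120 cells. Of the 42 cells, 18 were possible doublets, that is, called by Scrublet or holding 2 or more UMIs of a neuron, microglia, endothelial or astrocyte marker gate, against 2 of the 120. The levels that follow are therefore given without possible doublets, for 118, 24 and 24 Setdb1_cKO cells and 276 control cells with 0 UMIs.

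Setdb1_cKO OPCs without the 6 genes had Setdb1 at 71.8 (52.0 to 96.7) CPM, cells with 1 UMI 49.1 (18 to 107) CPM, and cells with 2 or more 17.8 (3.68 to 52.1) CPM, the last from 3 UMIs. Control cells without the 6 genes had 51.8 (40.1 to 65.9) CPM. Setdb1 thus stood lowest in the mutant cells with most of the gained genes, with an interval whose upper end met the lower end of that in cells without them. Atf7ip ran the other way, at 122 (95.5 to 153) CPM in cells without and 261 (190.0 to 351) CPM in cells with 2 or more. The gate gene Pdgfra stood at 1341 (1249.6 to 1437) CPM in cells without and 487 (388 to 605) CPM in cells with 2 or more, and the identity list at 13831 and 7475 CPM. Egfr, a receptor of glial intermediate progenitors, had 1.67 (0.0423 to 9.30) CPM in cells without and 89.1 (49.9 to 147) CPM in cells with 2 or more. The list of genes that precede the OPC state summed to 1723 and 3018 CPM, and Gpr17 to 352 (306 to 403) and 119 (72.6 to 184) CPM. The 24 cells with 1 UMI were close to the cells without, with the identity list at 13714 CPM, Gpr17 at 344 CPM, the list before the OPC state at 1629 CPM and Egfr at 16.4 (1.98 to 59.2) CPM from 2 UMIs. The lower identity list and the higher Egfr thus lay in the 24 cells with 2 or more UMIs. The astrocyte and radial glia list was near level, at 6051 and 5853 CPM, while the neuron list was at 1364 and 2573 CPM. Control cells without the 6 genes had Egfr at 15.7 (9.59 to 24.2) CPM and Gpr17 at 199 (175 to 225) CPM. Their identity list was at 12041 CPM and their astrocyte and radial glia list at 8028 CPM. Setdb1_cKO cells without the 6 genes thus also lay apart from control cells in these, while Pdgfra was near level, at 1338 CPM in those control cells. Haemoglobin genes held 3455 UMIs, or 20529 CPM, in the cells with 2 or more and 13.4 CPM in cells without. Nearly all of the 3455 came from the richest cell of each gene, with 1938 UMIs of Hbb-bs, 595 of Hba-a1, 495 of Hbb-bt and 425 of Hba-a2. Depth and neuron genes move with this split, as does haemoglobin RNA through its richest cells, and their part in it was not tested.

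**Figure D3:**
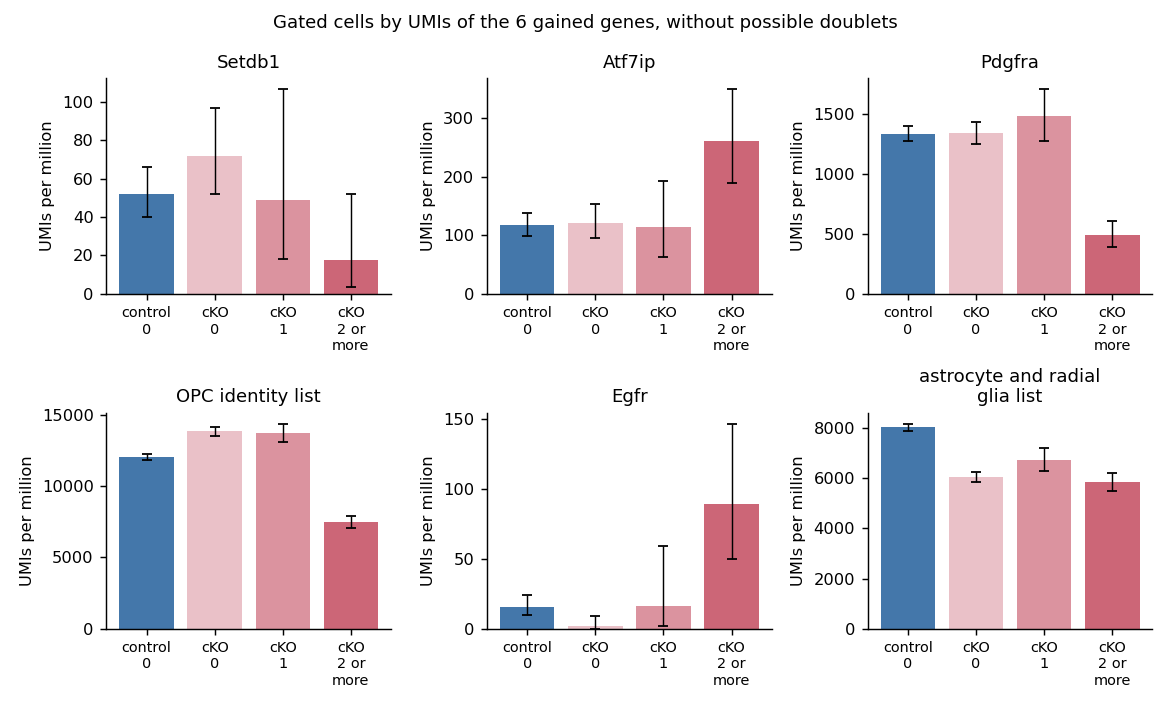
Levels in UMIs per 1000000 (bars, with exact 95% Poisson intervals) in OPCs without possible doublets, by the number of UMIs of the 6 gained genes in the cell: 276 control cells with 0, and 118, 24 and 24 Setdb1_cKO cells with 0, 1, and 2 or more. Setdb1, Pdgfra and the identity list are lowest, and Atf7ip and Egfr highest, in the Setdb1_cKO cells with 2 or more.

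Across all genes the OPCs of the libraries were close. Of 9789 measured genes outside the gate, 97 (0.991%) were at least 2-fold higher in Setdb1_cKO and 199 (2.03%) at least 2-fold lower. Among the 5615 with at least 100 UMIs the numbers were 18 (0.321%) and 36 (0.641%). Leaving out the possible doublets, 57 control and 22 Setdb1_cKO cells, gave 79 (0.908%) and 123 (1.41%) of 8698. Of the 97 higher genes, 47 kept a 2-fold ratio with an interval that excluded 1 both without these cells and without the 1 cell of each library richest in the gene, and of the 199 lower genes 53 did.

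Single cells made most of the largest differences, and these are given as such. By the ranking of interval bounds the lower genes were Cldn5, Kdr, Slc38a5, Cd93, Fn1, Ctla2a, Pf4, Igfbp7, Serpinh1 and Igfbp2. Of 225 control UMIs of Cldn5, a tight junction gene of endothelial cells, 212 lay in 1 cell, as did 60 of 65 of Kdr and 61 of 62 of Pf4, a gene of megakaryocytes and border macrophages. The endothelial and mural list held 621 UMIs in control and 48 in Setdb1_cKO, a ratio of 0.135 (0.0986 to 0.182), and without possible doublets 0.966 (0.474 to 1.91). The microglia list went from 0.185 (0.121 to 0.273) to 1.12 (0.553 to 2.21) in the same way. Haemoglobin genes had 37 and 3529 UMIs, of which 1938 of the 1984 Setdb1_cKO UMIs of Hbb-bs lay in 1 cell. Among the higher genes, Calb1, a calcium buffer of granule neurons, had 25 of its 30 Setdb1_cKO UMIs in 1 cell, and Bmp4, a ligand made by committed precursors, had 26 UMIs in 5 cells with 15 in 1 of them.

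**Figure D4:**
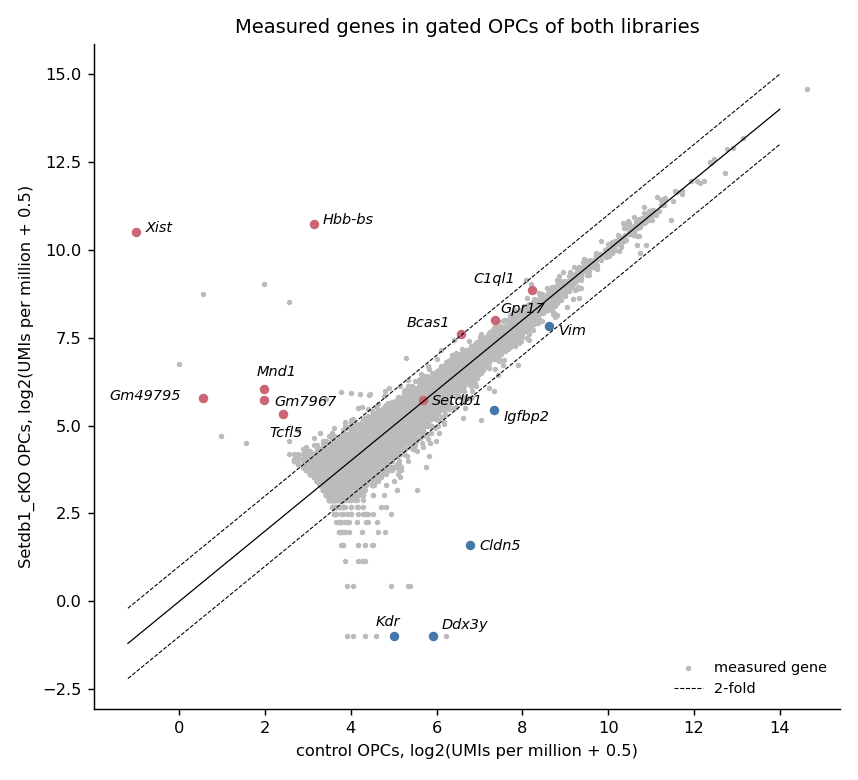
Each grey point is 1 of the measured genes, by log2(UMIs per 1000000 + 0.5) in control (x axis) and Setdb1_cKO OPCs (y axis), with the solid line at equal levels and dashed lines at 2-fold; coloured points are genes named in the text. Most genes lie within the dashed lines, 97 of 9789 above and 199 below, and Setdb1 lies on the line of equality.

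Most of the genes that follow were chosen after their values were seen, by the same ranking in cells without possible doublets. S100a13, a small calcium-binding protein, had 557 UMIs in 216 control cells and 663 in 141 Setdb1_cKO cells, a ratio of 2.08 (1.86 to 2.34) and of 2.18 (1.93 to 2.47) without possible doublets. It was not higher in Setdb1_cKO neurons, at 0.646 (0.468 to 0.894), or astrocytes, at 0.991 (0.901 to 1.09). Adk, adenosine kinase, had a ratio of 3.12 (2.35 to 4.17) in OPCs and was higher in Setdb1_cKO neurons too, at 8.51 (7.59 to 9.58). Samd1, a protein that reads unmethylated CpG islands, had 37 and 70 UMIs and a ratio of 3.31 (2.19 to 5.07), beside 3.79 (2.81 to 5.18) in astrocytes. Tspan4, a tetraspanin, was at 3.88 (2.52 to 6.09), and Gpd1, glycerol-3-phosphate dehydrogenase, at 5.25 (3.16 to 9.06). Adk was also higher in microglia, at 1.87 (1.22 to 2.92), and endothelial cells, at 1.71 (1.18 to 2.47), as was Samd1 in endothelial cells, at 2.53 (1.46 to 4.45). Adk and Samd1 were thus higher in OPCs, in neural and in other classes of the library, while for S100a13 the OPC interval lay above those of neurons and astrocytes.

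Of the lower genes, Igfbp2, a secreted binding protein of insulin-like growth factors, had 333 UMIs in 158 of 364 control OPCs and 50 in 37 of 188 Setdb1_cKO OPCs. The ratio was 0.263 (0.191 to 0.354), and 0.277 (0.19 to 0.394) without possible doublets. Egfr and Olig2 cells gave 0.329 (0.278 to 0.389), astrocytes 0.669 (0.64 to 0.699), neuroblasts 0.847 (0.786 to 0.912), microglia 0.653 (0.358 to 1.18) and Neurod6 neurons 1.24 (1.13 to 1.37). Igfbp2 was thus furthest from 1 in OPCs and in Egfr and Olig2 cells among these classes, and of them stood higher in Neurod6 neurons. Inka2, an inhibitor of the kinase Pak4, was at 173 and 86.1 CPM, a ratio of 0.498 (0.395 to 0.623). Pou3f1, a POU factor of the lineage named above among the 15 identity genes, was at 187 and 105 CPM, a ratio of 0.562 (0.455 to 0.69) and of 0.547 (0.437 to 0.679) without possible doublets. Cpne8 was at 0.366 (0.232 to 0.558), Fstl5 at 0.37 (0.197 to 0.651) and Lpar4, a lysophosphatidic acid receptor, at 0.179 (0.0555 to 0.446).

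The identity list itself was near level between the libraries. Of its 24 measured genes, 2 were at least 1.5-fold higher in Setdb1_cKO and 1 lower, beside 5.52% and 7.11% of all measured genes. Its summed ratio was 1.06 (1.03 to 1.08), and its median log2 ratio was 0.19 against 0.01 over all genes. C1ql1, a secreted synapse organiser, was higher, at 297 and 462 CPM, a ratio of 1.56 (1.38 to 1.75). Megf11, a cell surface receptor, was at 1.54 (1.15 to 2.05), and Emid1, an extracellular matrix protein, was lower, at 120.3 and 69.9 CPM, a ratio of 0.581 (0.447 to 0.749). Among 15 measured genes of platelet-derived and fibroblast growth factor signalling, 0 were higher and 1 lower at 1.5-fold. The lower one was Fgfr3, with 46 and 9 UMIs and a ratio of 0.342 (0.147 to 0.708). The feedback inhibitors Spry1, Spry2 and Spry4 had ratios of 1.18, 1.14 and 1.02, and the target factors Etv4 and Etv5 of 0.779 and 1.19.

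Several genes of the committed precursor stood higher in Setdb1_cKO. Of 14 measured members of 19 listed, 5 stood at least 1.5-fold higher and 0 lower, beside 5.52% and 7.11% of all measured genes, and the list had a summed ratio of 1.22 (1.15 to 1.29) and a median log2 ratio of 0.37. Gpr17 had 163 CPM in control OPCs and 255 CPM in mutant OPCs, a ratio of 1.57 (1.34 to 1.84). Bcas1 was at 94.5 and 195 CPM, a ratio of 2.07 (1.70 to 2.51), and Lims2 had 1.66 (1.23 to 2.23). Fyn, the kinase that starts process outgrowth, was level at 0.993 (0.887 to 1.11), and Itpr2 stood at 0.851 (0.708 to 1.02). Without possible doublets, the list was at 2399 CPM in Setdb1_cKO OPCs with 0 UMIs of the 6 gained genes. It was at 1515 CPM with 1 UMI and 1171 CPM with 2 or more, against 1648 CPM in control OPCs with 0. The higher sum thus lay in the mutant cells without the 6 genes. Gpr17 was higher also in mutant cells with 1 UMI, at 344 CPM against 199 CPM in those control cells. At 2000 UMIs per cell, 89 of 346 control OPCs (25.7%) and 77 of 182 Setdb1_cKO OPCs (42.3%) held a UMI of Gpr17, Neu4, Bmp4 or Enpp6, a ratio of 1.64 (1.20 to 2.26). At 3000 UMIs per cell the ratio was 1.31 (0.988 to 1.73). Nearly all of the 89 and 77 cells, 87 and 72, held Gpr17 itself. Such a UMI was held by 1 of 231 control microglia (0.433%) and by 0 of 237 Setdb1_cKO microglia (interval up to 1.54%).

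Myelin genes were sparse, and 10 of 20 listed were measured. Of these, 3 were at least 1.5-fold higher and 2 lower, beside 5.52% and 7.11% of all measured genes. The 2 lower ones were at least 2-fold lower, each with an interval below 1. Without possible doublets 8 were measured, 3 of them higher and 0 lower, beside 5.63% and 6.51% of all genes measured in those cells. Cnp, a myelin enzyme transcribed early, was at 132 and 188 CPM, a ratio of 1.43 (1.19 to 1.72). Mbp was at 56.5 and 78.4 CPM, a ratio of 1.39 (1.04 to 1.84), and Gjc3, a glial connexin, had 1.67 (1.18 to 2.38). In cells with at least 2 UMIs of Gpr17, 81 in control and 80 in Setdb1_cKO, the myelin list summed to 491 and 961 CPM, against 478 and 335 CPM in the other OPCs. The committed precursor list, which contains Gpr17, summed to 1304 and 1998 CPM in those cells and to 1285 and 1163 CPM in the others.

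Before the OPC state, 10 of 12 listed genes were measured. Of these, 3 were at least 1.5-fold higher and 0 lower, beside 5.52% and 7.11% of all measured genes. The list had a summed ratio of 1.08 (1.03 to 1.13). The Notch ligand Dll3 had 1.60 (1.13 to 2.27). Sox4 and Sox11, factors of immature cells, were level at 1.03 (0.936 to 1.13) and 1.01 (0.927 to 1.10). Of 12 inhibitors of differentiation, all measured, 1 was at least 1.5-fold higher and 0 lower, and the median log2 ratio was -0.27. Id3, a target of bone morphogenetic proteins, was at 419 and 287 CPM, a ratio of 0.686 (0.603 to 0.779), and the Notch target Hes5 at 0.817 (0.724 to 0.92). Lingo1, a receptor that restrains myelination, was the higher one, at 1.63 (1.19 to 2.23).

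**Figure D5:**
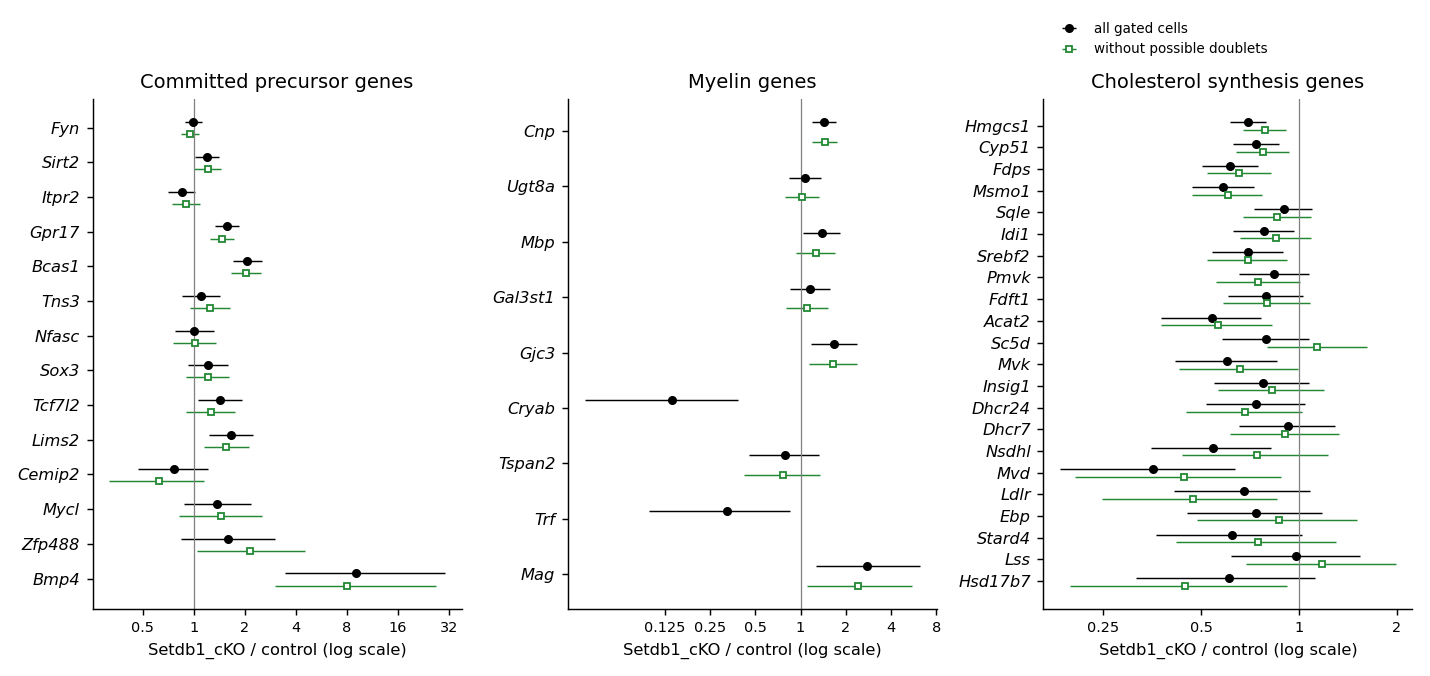
Ratio of Setdb1_cKO to control (log scale) for measured genes of 3 lists, ordered by control UMIs, with exact 95% Poisson intervals; black points are all OPCs and open squares are OPCs without possible doublets, drawn where at least 30 UMIs remained. Gpr17, Bcas1 and Cnp lie above 1, and the black points of the cholesterol genes drawn lie below 1, from 0.355 for Mvd to 0.982 for Lss.

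A smaller share of OPCs held the proliferation genes Mki67 or Top2a in Setdb1_cKO at the main depth. At 2000 UMIs per cell, 110 of 346 control OPCs (31.8%, 26.9% to 37.0%) and 38 of 182 Setdb1_cKO OPCs (20.9%, 15.2% to 27.5%) held a UMI of Top2a or Mki67, a ratio of 0.657 (0.442 to 0.958). The interval held 1 at 3000 UMIs per cell, at 0.706 (0.482 to 1.02), and without thinning, at 0.753 (0.543 to 1.03). Neurod6 neurons, a class that does not divide, had 5.66% and 4.03%. Without thinning, 104 of 996 control cells of this gate held either gene, and Top2a alone had 664 UMIs in the gate. The source of these UMIs, and its part in the OPC difference, was not tested. The share was lower in other classes too, with ratios of 0.567 (0.428 to 0.749) in astrocytes, 0.449 (0.371 to 0.541) in neuroblasts and 0.580 (0.339 to 0.974) in microglia, while endothelial cells gave 2.12 (1.21 to 3.78). Top2a itself had a ratio of 0.925 (0.809 to 1.06) in OPCs, an interval that held 1. Of 52 measured mitosis genes, 0 were at least 1.5-fold higher and 6 lower, 2 of them with an interval below 1, beside 7.11% of all measured genes lower, for a summed ratio of 0.884 (0.856 to 0.912). Without possible doublets 19 of 50 were lower, beside 6.51% of all genes measured in those cells, and the ratio was 0.752 (0.726 to 0.78). Ccnb1, the mitotic cyclin B1, was at 114 and 55.4 CPM, a ratio of 0.488 (0.365 to 0.645). Of 42 measured S phase genes, 2 were higher and 5 lower, 2 of these with an interval below 1, for a summed ratio of 0.927 (0.882 to 0.974), and Rrm1, a subunit of ribonucleotide reductase, was at 0.642 (0.476 to 0.855). Cdkn1c, an imprinted inhibitor of cyclin-dependent kinases that is known to promote cell cycle exit of OPCs, had 44 UMIs in 32 control cells and 69 in 38 Setdb1_cKO cells, a ratio of 2.74 (1.85 to 4.10). In astrocytes the ratio of Cdkn1c was 0.941 (0.857 to 1.03), and in neuroblasts 2.90 (2.60 to 3.24). Cycling cells were found among cells with at least 2 UMIs of Gpr17, 40.7% in control and 31.2% in Setdb1_cKO, and among the other OPCs, 39.2% and 28.7%.

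Cholesterol synthesis, which oligodendroglia need to build membrane, was lower in Setdb1_cKO OPCs. All 23 listed genes were measured, 0 were at least 1.5-fold higher and 9 lower, beside 7.11% of all measured genes lower, and they summed to 2473 and 1730.1 CPM, a ratio of 0.7 (0.664 to 0.737), and a median log2 ratio of -0.51. Msmo1, a sterol oxidase, had 0.585 (0.468 to 0.726), Fdps, which makes farnesyl diphosphate, 0.615 (0.502 to 0.749), and Mvd, mevalonate decarboxylase, 0.355 (0.185 to 0.637). Srebf2, the transcription factor of the pathway, had 0.698 (0.541 to 0.894). Sqle, Dhcr7 and Lss, later enzymes, gave intervals that held 1, at 0.897, 0.925 and 0.982. The list had a ratio of 0.737 (0.694 to 0.783) without possible doublets. In other classes it was 0.623 (0.594 to 0.653) in Egfr and Olig2 cells, 0.889 (0.874 to 0.905) in astrocytes, 0.847 (0.829 to 0.865) in Neurod6 neurons and 0.716 (0.645 to 0.794) in microglia. A lower level was thus shared by several classes of the library and was further from 1 in OPCs than in astrocytes or neurons. Free RNA is shared by all classes of a library, and its part was not tested.

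Genes of astrocytes and radial glia were lower in Setdb1_cKO OPCs. All 16 listed genes were measured, 0 were at least 1.5-fold higher and 7 lower, beside the same 7.11%, and they summed to 10265 CPM in control and 7097 CPM in Setdb1_cKO, a ratio of 0.691 (0.674 to 0.709), or 0.773 (0.748 to 0.798) without possible doublets. Slc1a3, the glutamate transporter GLAST, was at 637 and 395 CPM, a ratio of 0.619 (0.556 to 0.689). It was also lower in Setdb1_cKO microglia, at 140.5 and 73.7 CPM, and neuroblasts, at 238 and 111 CPM, but near level in astrocytes themselves, at 0.964 (0.944 to 0.984). Vim, a filament gene of immature glia, was at 396 and 227 CPM, a ratio of 0.573 (0.497 to 0.659) and of 0.569 (0.475 to 0.678) without possible doublets. Of 329 control UMIs of Gfap, the astrocyte filament, 232 lay in 1 cell, and Aqp4, the astrocyte water channel, had 7 and 0 UMIs once possible doublets were left out. The part of free RNA and of doublets in the lower glial genes was not tested.

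Of 21 measured matrix genes of 24 listed, 1 was at least 1.5-fold higher and 6 lower, each of the 6 with an interval below 1, beside 7.11% of all measured genes lower. Without possible doublets 2 of 17 were lower, beside 6.51% of all genes measured in those cells. The list had a summed ratio of 0.951 (0.928 to 0.976) and 1.01 (0.978 to 1.04) without possible doublets. Cspg5 and Bcan, proteoglycans of the lineage, had 1.03 (0.981 to 1.09) and 1.02 (0.937 to 1.12). Ncan, the proteoglycan neurocan, was at 0.638 (0.561 to 0.724) and at 0.805 (0.667 to 0.969) without possible doublets, and Sparcl1, a secreted glial protein, at 0.62 (0.543 to 0.705) and 0.606 (0.464 to 0.784). Sparc, a matrix protein shared with vascular cells, went from 0.442 (0.36 to 0.539) to 0.729 (0.573 to 0.922). Ncan and Sparc thus lost the 1.5-fold difference without these cells, and Sparcl1 did not.

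Few receptor and channel genes stood apart, and their counts stand beside 5.52% of all measured genes at least 1.5-fold higher and 7.11% lower. Of 26 measured glutamate and GABA receptor genes, 2 were at least 1.5-fold higher and 2 lower (median log2 ratio 0.17), and of 20 ion channel genes, 0 were higher and 3 lower, with a median of 0.01. Gria2, the subunit that blocks calcium entry through AMPA receptors, was at 729 and 620.5 CPM, a ratio of 0.851 (0.778 to 0.93), and Gria4 at 1.43 (1.11 to 1.85). Gabra5, a subunit of the GABA-A receptor, was among the higher ones, at 2.80 (1.41 to 5.74). The potassium channels Kcnd2 and Kcnj10 had 0.962 (0.814 to 1.13) and 1.05 (0.772 to 1.41).

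Clustered protocadherins, cell surface genes expressed in random sets, summed to 240.2 and 358 CPM, a ratio of 1.49 (1.31 to 1.70), or 1.28 (1.10 to 1.5) without possible doublets. Of 57 listed genes 8 were measured, 4 of them at least 1.5-fold higher and 0 lower, beside 5.52% and 7.11% of all measured genes. Only 1 of the 4 had an interval above 1. Pcdhga5 had 13 UMIs in 12 control cells and 34 in 21 Setdb1_cKO cells, a ratio of 4.58 (2.35 to 9.45), while the constitutive Pcdhgc3 had 1.02 (0.654 to 1.56). The list had 2.21 (2.13 to 2.28) in neuroblasts and 1.38 (1.29 to 1.48) in astrocytes. Isoforms of the alpha cluster, and those of the gamma cluster, share 3' exons within their cluster. Reads can therefore be split between them by the counting, and single isoforms of these 2 clusters are uncertain.

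The counts of the remaining lists stand beside 5.52% of all measured genes at least 1.5-fold higher and 7.11% lower. Of 20 measured imprinted genes, 2 were at least 1.5-fold higher and 1 lower, and Meg3, a noncoding RNA, was at 493 and 665 CPM, a ratio of 1.35 (1.23 to 1.48), or 1.11 (0.982 to 1.26) without possible doublets. Of 11 stress response genes, 0 were higher and 0 lower, with a summed ratio of 0.977 (0.931 to 1.03). Of 15 immediate early and heat shock genes, 1 was higher and 3 lower, among them Fosb at 0.444 (0.24 to 0.779) and Ier3 at 0.447 (0.27 to 0.713). Of 7 measured interferon and antigen presentation genes of 23 listed, 0 were higher and 2 lower, at 240.2 and 206 CPM for the list. Of 14 measured patterning factors, 0 were higher and 4 lower, namely Emx2 at 0.558 (0.354 to 0.855), Pax6 at 0.617 (0.34 to 1.08), Zic1 at 0.437 (0.218 to 0.815) and Zic2 at 0.437 (0.211 to 0.836), factors of cortical and medial progenitors. Of 10 measured p53 targets, 2 were higher, Trp53inp1 at 1.87 (1.08 to 3.26) and Btg2 at 1.58 (1.19 to 2.08), and 0 lower. Of 13 measured cyclins and inhibitors of the first gap phase, 2 were higher, Cdkn1c and Mycn, and 1 lower, E2f1, and Ccnd2, a cyclin of the D type, was at 0.75 (0.662 to 0.849). Of 3 measured reactive glia genes of 14 listed, Gfap, Vim and Lgals1 were lower, the last, a galectin, at 0.359 (0.192 to 0.632). The neuron list had 3 of 16 genes higher and 1 lower and a summed ratio of 1.05 (0.999 to 1.10). The fibroblast list had 1 of 7 genes measured, Igfbp2, which made 333 of its 375 control and 50 of its 58 Setdb1_cKO UMIs, while Lum and Col6a1 were at 0 in both libraries. Of 88 ribosomal protein genes 1 was higher and 0 lower, and of 13 mitochondrial genes 0 were either.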

How the data were processed

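Messenger RNA of dissociated dentate gyrus cells was measured in 1 control and 1 Setdb1_cKO library. The deposited matrices hold raw, unscaled UMI counts for each gene in each barcode, per the file headers. Cell Ranger 7.1.0, Seurat and the build mm10 are named in the submitters' processing notes. The cell calling, the counting of intronic reads and the annotation release were not given in the sources used here, and no barcode of either library had fewer than 500 UMIs.

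From these counts, 11414 of 14397 control and 9956 of 12060 Setdb1_cKO barcodes were kept by the filters given in the results, with 78793797 and 84575932 UMIs. Counts were summed over the OPCs of a library and divided by their total (CPM). Intervals are exact 95% Poisson intervals for levels, exact conditional Poisson intervals for ratios and exact Clopper-Pearson ones for shares. UMIs limit the precision: a gene of 30 UMIs over both libraries, the minimum, has a wide interval. A pseudocount of 0.5 UMI was added for log2 ratios. Shares were read after thinning each cell to 2000 UMIs, which left out 18 control and 6 Setdb1_cKO OPCs. Scrublet (scanpy 1.11.5, expected rate 8%) ran on each library and marked 35 and 14 OPCs; these were kept in the main values and left out where stated. Comparison classes were gated in kept cells outside the OPC gate: neurons by 2 or more UMIs of Neurod6, neuroblasts by 3 or more of Dcx and Neurod1 with 0 of Neurod6, microglia by 3 or more of P2ry12, Cx3cr1 and Csf1r, endothelial cells by 3 or more of Cldn5, Pecam1 and Flt1, astrocytes by 3 or more of Aqp4 and Gja1 with 0 of Olig1 and Olig2, and Egfr and Olig2 cells by 2 or more and 1 or more UMIs of these. Cells in more than 1 of these gates were left out. Chromosomes of genes came from GENCODE vM21 by Ensembl identifier, of which 32235 of 32285 matched. Python 3.11.15, numpy 2.4.6, scipy 1.17.1, pandas 2.3.3 and matplotlib 3.10.9 were used, and the ratio and thinning steps were tested on simulated data.

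Genes of at least 30 UMIs and, in their higher library, 20 CPM were put in order of the ratio's interval bound nearest 1, and the 12 highest and 12 lowest could be named. Mitochondrial, haemoglobin, ribosomal protein, sex-linked and gate genes among them were left out. Identity genes were the 15 highest by the lower bound among genes of at least 50 CPM, and members of the 33 lists were named when at least 1.5-fold apart or among the 4 of highest level. Other named genes, such as Nkx2-1, Gsx1, Cdkn1c beside its list and the repeat of the ranking without possible doublets, were chosen after their values were seen. The gate, the lists and the 6 gained genes were chosen with earlier results of these data known. Some genes of the lists are not reported here by name. Alternatives were other cell filters, gates, doublet filters, scalings, weights and minimums.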

Additional observations from a re-analysis of the deposited data

How the results depend on the processing

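No paired analysis was possible because each genotype had 1 library and no replicate numbers. With 1 library a group, no library could be left out. Over all settings the share of OPCs in Setdb1_cKO relative to control ranged from 0.577 to 0.626, the Setdb1 ratio from 0.852 to 1.25, the cycling share ratio from 0.646 to 0.753, the committed share ratio from 1.31 to 1.96 and the ratio of the shares of cells with a UMI of the 6 gained genes from 2.74 to 6.57. The number of identity genes ranged from 623 to 835. The count of higher genes moved from 97 to 149 with a gate minimum of 1 UMI, to 327 with a minimum of 10 UMIs a gene and to 18 with 100 UMIs. The count of lower genes moved from 199 to 636 and 36 with these minimums, and to 123 with both doublet filters. The use of both doublet filters together, and of all cells but the richest for each gene, was chosen after seeing the data.

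With a gate minimum of 1 UMI, Gfap turned to 1.28, Pf4 to 2.37 and the identity list to 0.984. With a minimum of 4 UMIs, the list of genes before the OPC state turned to 0.973, the matrix list to 1.002 and the haemoglobin list to 0.749. With the gate read on thinned counts, Gfap turned to 1.11, Aqp4 to 1.30, Cldn5 to 1.15, Pf4 to 1.72, Igfbp7 to 1.08, the matrix list to 1.04 and the haemoglobin list to 0.574. Without cells that held markers of other types, Pf4 turned to 1.72, and the matrix, microglia and endothelial lists to 1.02, 1.04 and 1.21. Without Scrublet doublets Pf4 turned to 1.69, and with both filters Pf4 turned to 1.61 and the matrix and microglia lists to 1.01 and 1.12. Without cycling cells, Cldn5, Pf4 and the endothelial list turned to 1.03, 1.54 and 1.17, and with equal weight per cell the matrix list to 1.002. For these the cause was not tested. Of the other values of genes and lists, 1044 moved by less than their counting interval and 192 by more. A change of direction was counted only where the main interval excluded 1, and no other such value changed direction. Values whose main interval held 1 could cross it uncounted. The neuron list did so, from 1.05 to 0.946 with both doublet filters. Depth limits genes under 30 UMIs, for which no ratio is given.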

Other observations

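The most uneven genes across OPCs, by the ratio of variance to mean of UMIs per cell at 2000 UMIs in both libraries, were Malat1, Tmsb4x, Apoe, Hmgb2, Zbtb20 and Top2a among 3453 genes with a mean of at least 0.1 UMI. Apoe, a lipid carrier of astrocytes and microglia, had means of 2.49 UMIs per cell in control and 1.28 in Setdb1_cKO, with ratios of variance to mean of 13.3 and 6.61. Tmsb4x, an actin-binding peptide abundant in microglia and endothelium, had means of 7.69 and 6.94 and ratios of 7.39 and 6.89. Top2a, a topoisomerase of dividing cells, had means of 0.578 and 0.445 and ratios of 3.80 and 3.79.

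OPCs without a UMI of Top2a or Mki67 held more of the lineage genes than cycling OPCs in both libraries. Their identity list summed to 11262 CPM in control and 11881 CPM in Setdb1_cKO, against 9312 and 9495 CPM in cycling OPCs. The committed precursor list was at 1443 and 1795 CPM in cells without and at 1110.2 and 1089 CPM in cycling cells. The mitosis list, which contains the genes of the split, was at 9406 and 9458 CPM in cycling cells of the libraries. The higher sum of the committed precursor list in Setdb1_cKO thus lay in cells without these cycle genes. Gpr17 itself was higher in both kinds of cell. It stood at 146 (122 to 172) CPM in control and 219 (178 to 266) CPM in Setdb1_cKO cycling OPCs, and at 177 and 278 CPM in the others. The difference between the 2 kinds of cell was not tested.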
